A study of Homo sapiens with 6 samples.

Results

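The 64 genes described here encode proteins of the cytoplasmic ribosome, 42 of its large subunit (RPL symbols) and 22 of its small subunit (RPS symbols), out of 18417 genes that had a row of their own on the arrays. They were picked by symbol: RPL or RPS with digits and an optional paralog suffix, RPSA, or a symbol of the stalk proteins, on a row annotated with a single gene. Pseudogenes, S6 kinase genes and RPS4Y genes were left out. A gene with several rows was read from the row with the highest mean over the 6 arrays, which applied to 23 members, while the other 41 had a single row. RefSeq lists 84 genes that fit the same symbols, and 20 of them, including RPLP0, RPSA, RPS18 and RPL15, had no row with a single symbol and were not analysed here.

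RNA came from RD18, an established human line of embryonal rhabdomyosarcoma, a tumour of muscle-like cells, and each culture was read on 1 Affymetrix Human Gene ST array. Induced miR-22 cells (line NpBI-22, 2 arrays) were given doxycycline at 1 µg/ml for 6 days, which switches on the microRNA miR-22, and non-induced miR-22 cells (2 arrays) were the same line without the drug. Induced NpBI-206AS cells (1 array) were given the same treatment and non-induced NpBI-206AS cells (1 array) were left untreated. The labels call the miR-22 replicates biological and the NpBI-206AS arrays additional controls, but leave unsaid what the NpBI-206AS construct makes, whether either line is 1 clone, or whether a replicate number pairs cultures.

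A ribosome joins ribosomal RNA with a set of proteins, most of them present in a single copy, so cells keep the mRNAs of these proteins at high and balanced levels. In vertebrates most of these mRNAs begin with a C followed by a run of C and U (the 5′ terminal oligopyrimidine, or TOP, motif), through which LARP1 and the kinase complex mTORC1 set how strongly they are translated and how stable they are. In muscle, new ribosomes are a known part of growth, and a few members have relatives that are made mainly in muscle, heart or testis. Some ribosomal proteins also bind MDM2, the protein that destroys p53, when assembly is disturbed.

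The microRNA that the drug induces is shown first, with its seed (bases 2 to 8), which pairs with target mRNAs, in capitals. It is the mature sequence in RefSeq on GRCh38.p14, at chr17:1713914-1713935 on the minus strand.
hsa-miR-22-3p: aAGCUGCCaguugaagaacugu

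The stretch around the annotated start of transcription was then read for the C and T run of TOP genes, because the members have this feature in common and the symbol rule did not use it. The motif searched was a C followed by at least 4 further C or T bases on the gene's own strand, with that C at most 5 bases from the start. Of the 64 members, 53 had a start in the RefSeq table used here (GRCh38.p14), and 44 of them, or 83%, held the run at a start, against 28.1% of 14186 other measured genes. By window rather than by gene, 75% of 64 member windows held it, against 21.1% of all 35116 windows. The 9 members without it were RPL10L, RPL17, RPL26L1, RPL27, RPL7L1, RPS15, RPS27L, RPS29 and RPS4X. RPL5, RPL7, RPL8, RPL23, RPL23A, RPL30, RPL3L, RPL39L, RPS2, RPS15A and RPS20 had no entry. The 4 members that passed the main test and the 7 others that the results turn on are printed as 40 bases before and 20 from the start onward, with the run in capitals, and a start that holds the run was preferred where several are listed.
RPL28: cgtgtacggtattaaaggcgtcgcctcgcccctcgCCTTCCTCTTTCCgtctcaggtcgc
RPS19: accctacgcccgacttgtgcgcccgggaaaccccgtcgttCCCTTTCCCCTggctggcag
RPL31: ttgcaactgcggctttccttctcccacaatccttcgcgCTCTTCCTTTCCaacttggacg
RPL32: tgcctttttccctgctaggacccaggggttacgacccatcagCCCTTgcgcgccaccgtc
RPL27A: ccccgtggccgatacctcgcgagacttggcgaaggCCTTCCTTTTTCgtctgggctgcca
RPL22L1: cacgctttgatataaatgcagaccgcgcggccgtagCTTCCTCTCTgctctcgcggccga
RPL4: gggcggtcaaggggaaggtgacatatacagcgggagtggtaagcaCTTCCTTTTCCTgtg
RPL17: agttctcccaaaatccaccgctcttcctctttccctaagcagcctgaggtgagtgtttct
RPL26L1: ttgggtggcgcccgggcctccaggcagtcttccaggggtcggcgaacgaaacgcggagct
RPS27L: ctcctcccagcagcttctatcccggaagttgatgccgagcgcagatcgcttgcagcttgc
RPL7L1: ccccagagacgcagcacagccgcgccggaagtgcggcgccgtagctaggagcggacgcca

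In GRCh38.p14 these stretches lie at chr19:55385892-55385951 (RPL28, plus strand), chr19:41860215-41860274 (RPS19, plus), chr2:101002249-101002308 (RPL31, plus) and chr3:12841546-12841605 (RPL32, minus). RPL27A lies at chr11:8682752-8682811 on the plus strand and RPL22L1 at chr3:170870176-170870235 on the minus strand. RPL4 lies at chr15:66504836-66504895 (minus), RPL17 at chr18:49492446-49492505 (minus), RPL26L1 at chr5:172958689-172958748 (plus), RPS27L at chr15:63157458-63157517 (minus) and RPL7L1 at chr6:42879576-42879635 (plus). In RPL17 a run of C and T stands upstream of the annotated start and outside the window searched, so no match says only that these letters are not within 5 bases of that start. RPL26L1, RPS27L and RPL7L1 are paralogs and had no run. The letters CCGGAAG, in either orientation within the 300 bases around a start, occurred in 20 of the 53 members (37.7%), and 37.5% of member windows held them against 10.3% of all windows. The CC that opens this motif can also be part of a C and T run. In the other orientation, CTTCCGG, the opening CTTCC is by itself such a run, so both motifs can overlap.

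Several facts of the arrays bear on every value below. Levels are log2 values that share nearly 1 distribution on all arrays, with medians between 5.66 and 5.75, and the small number of arrays limits precision. Both induced miR-22 arrays carry the code prefix R715, non-induced replicate 1 carries R509 and the remaining 3 arrays carry R587. What the prefix marks is not in the labels, and any batch it stands for cannot be told apart from the induction of miR-22. MIR22HG, the host gene of miR-22, averaged 10.02 ± 0.01 in induced and 6.49 ± 0.32 in non-induced miR-22 cells (SD, n = 2 each), so the labels of induction hold. Of 7 muscle-lineage markers read as a check of the cell type, MYOG, MYOD1, DES, CHRNA1 and PAX7 lay between 6.78 and 11.8 on all arrays, above the array medians, whereas MYF5 stayed between 3.88 and 3.96, around the lower quartile of the arrays (3.92 to 4.01). Blood, epithelial, endothelial and liver markers (PTPRC, CD3E, HBB, EPCAM, CDH1, KRT5, PECAM1, CDH5 and ALB) lay between 2.66 and 4.84, below every array median. MYH3 ranged from 4.86 to 8.02. DES (-1.07, adjusted p = 0.038) and MYH3 (-2.79, adjusted p = 0.015) were lower in induced miR-22 cells. Whether that difference in muscle genes has a part in the ribosomal values was not tested.

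In the miR-22 line, most ribosomal protein mRNAs read higher with doxycycline than without it, by a moderate amount. The median over the 64 members was 11.52 and 11.42 on the induced arrays, against 10.92 and 11.05 on the non-induced ones, and it was 11.14 in induced and 11.07 in non-induced NpBI-206AS cells. The median of the members' log2 changes (induced minus non-induced, miR-22 line) was 0.40, with quartiles of 0.23 and 0.61, whereas the median over all 18417 genes was 0.01. The value was above 0 for 58 members, beside 51.1% of all genes, and below 0 for 6. In RNA from whole cultures, a change in the cells that hold an mRNA and a change in its amount per cell cannot be told apart, and RMA would hide a change that all genes share.

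Few members passed the test on their own. In limma, with Benjamini-Hochberg adjustment over all rows, 4 members rose (RPL28, RPL31, RPL32 and RPS19) and none fell at an adjusted p under 0.05, where 1.73% of all genes rose and 1.53% fell. At an unadjusted p under 0.05 there were 29 members higher, beside 12.1% of all genes, and 2 lower (RPL4 and RPL7L1), beside 9.12%. Both induced arrays lay above both non-induced arrays for 51 members, an order that 27.9% of all genes had, and below both for 2 members, beside 24.5% of all genes. A change of at least 1.5-fold was seen upward in 18 members, beside 8.15% of all genes, and downward in 1, RPL7L1, beside 6.13%. When a single miR-22 array was removed, whichever of the 4 it was, no gene on the arrays passed in limma. At an unadjusted p under 0.05 there were then between 7 and 33 members higher, beside 5.4% to 13.6% of all genes, and between 7 and 24 of the 29 members above were among them. RPL28 and RPL32 also missed the threshold when all rows of a gene were averaged (adjusted p = 0.0505 and 0.0516), RPL32 with an intensity trend (0.0519) and RPL31 after cyclic loess (0.0523). Without 1 array the median change lay between 0.32 (without non-induced replicate 1) and 0.48 (without non-induced replicate 2).

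**Figure D1:**
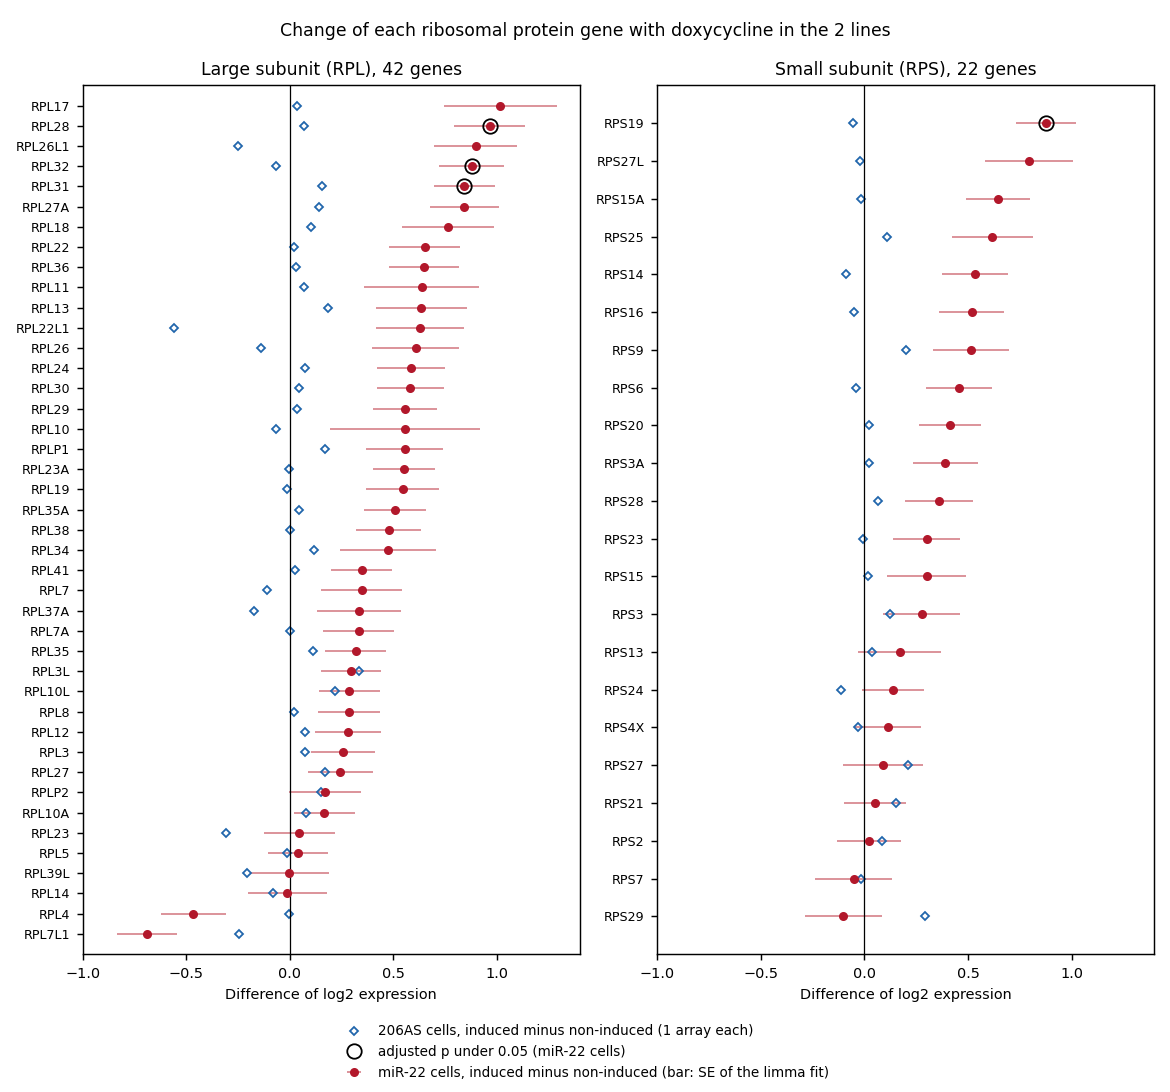
Difference of log2 expression, induced minus non-induced, for each of the 42 large-subunit genes (left) and 22 small-subunit genes (right). Red points are miR-22 cells with the SE of the limma fit, rings mark an adjusted p under 0.05, and open blue diamonds are NpBI-206AS cells with 1 array each. Red points lie right of 0 for 58 of 64 genes, while the diamonds lie around 0.

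Other bright genes had smaller changes. Among the 45 members with a mean level of at least 10, the median change was 0.41 and 77.8% had both induced arrays above all 4 remaining arrays. Among 846 other genes at that level, the median change was 0.065 and 31.1% had that order. At a mean level of at least 11 the figures were 0.39 and 81.1% for 37 members, and 0.04 and 32.6% for 230 other genes. The 19 members under a level of 10 had a median change of 0.33, and 57.9% of them had that order. These are descriptions of the same 6 arrays, without a test.

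RPL28, a large-subunit protein that bacteria lack, had the largest change among the members that passed (row 8031483). It was read at 11.003 and 11.307 on the induced miR-22 arrays, against 10.19 and 10.19 on the non-induced ones, 10.27 in induced NpBI-206AS cells and 10.20 in non-induced NpBI-206AS cells. The 4 arrays without induced miR-22 were nearly level, and both induced miR-22 arrays stood apart from them. The log2 change was 0.96 (SE 0.17), or 1.95-fold, with an adjusted p of 0.048 in limma.

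RPS19 lies in the head of the small subunit, is needed to mature its RNA, and is the gene most often mutated in the inherited anaemia named after Diamond and Blackfan. Row 8029129 read 11.05 and 10.97 on the induced miR-22 arrays, against 10.15 and 10.12 on the non-induced ones, 10.15 in induced NpBI-206AS cells and 10.21 in non-induced NpBI-206AS cells. Again the induced miR-22 arrays did not overlap the rest. The log2 change was 0.88 (SE 0.15), or 1.84-fold, and the adjusted p was 0.043 in limma, the lowest among the members.

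RPL31 sits at the rim of the tunnel through which the new protein leaves the ribosome. Its row 8180287 had 10.81 and 10.83 on the induced miR-22 arrays, against 10.01 and 9.95 on the non-induced ones, 10.16 in induced NpBI-206AS cells and 10.01 in non-induced NpBI-206AS cells. The log2 change was 0.84 (SE 0.15, adjusted p = 0.046 in limma). A second, dimmer RPL31 row also passed, with 8.02 and 8.41 on the induced miR-22 arrays and 7.10 and 7.14 on the non-induced ones (log2 change 1.09, adjusted p = 0.044). On that second row, however, induced NpBI-206AS cells had 7.98 and non-induced NpBI-206AS cells 8.05, close to the induced miR-22 arrays. The rows of RPL31 thus gave different pictures of the NpBI-206AS line.

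RPL32, another protein of the large subunit, had 8.15 and 7.95 on the induced miR-22 arrays, against 7.14 and 7.20 on the non-induced ones, 7.35 in induced NpBI-206AS cells and 7.41 in non-induced NpBI-206AS cells (row 8085407). No array without induced miR-22 reached the induced ones. The log2 change was 0.88 (SE 0.16, adjusted p = 0.049 in limma).

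Several members with values of similar size did not pass the adjusted test. RPL17, which lines the exit tunnel, had 8.66 and 8.90 on the induced miR-22 arrays, against 7.39 and 8.13 on the non-induced ones, 8.17 in induced NpBI-206AS cells and 8.13 in non-induced NpBI-206AS cells. Its log2 change of 1.02 (SE 0.27, adjusted p = 0.11 in limma) was the largest of all members, and non-induced replicate 1 was far below the 3 remaining control arrays. Without that replicate the change was 0.65. RPL27A, a conserved protein of the large subunit, had 11.75 and 11.64 on the induced miR-22 arrays, against 10.98 and 10.72 on the non-induced ones, 10.97 in induced NpBI-206AS cells and 10.83 in non-induced NpBI-206AS cells. The change was 0.84 (SE 0.17, adjusted p = 0.060), with the 4 remaining arrays well below the induced ones. RPL18, a large-subunit protein, had 13.12 and 12.99 on the induced miR-22 arrays, against 12.02 and 12.57 on the non-induced ones, 12.67 in induced NpBI-206AS cells and 12.57 in non-induced NpBI-206AS cells, a change of 0.76 (adjusted p = 0.12) that was 0.49 without non-induced replicate 1.

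**Figure D2:**
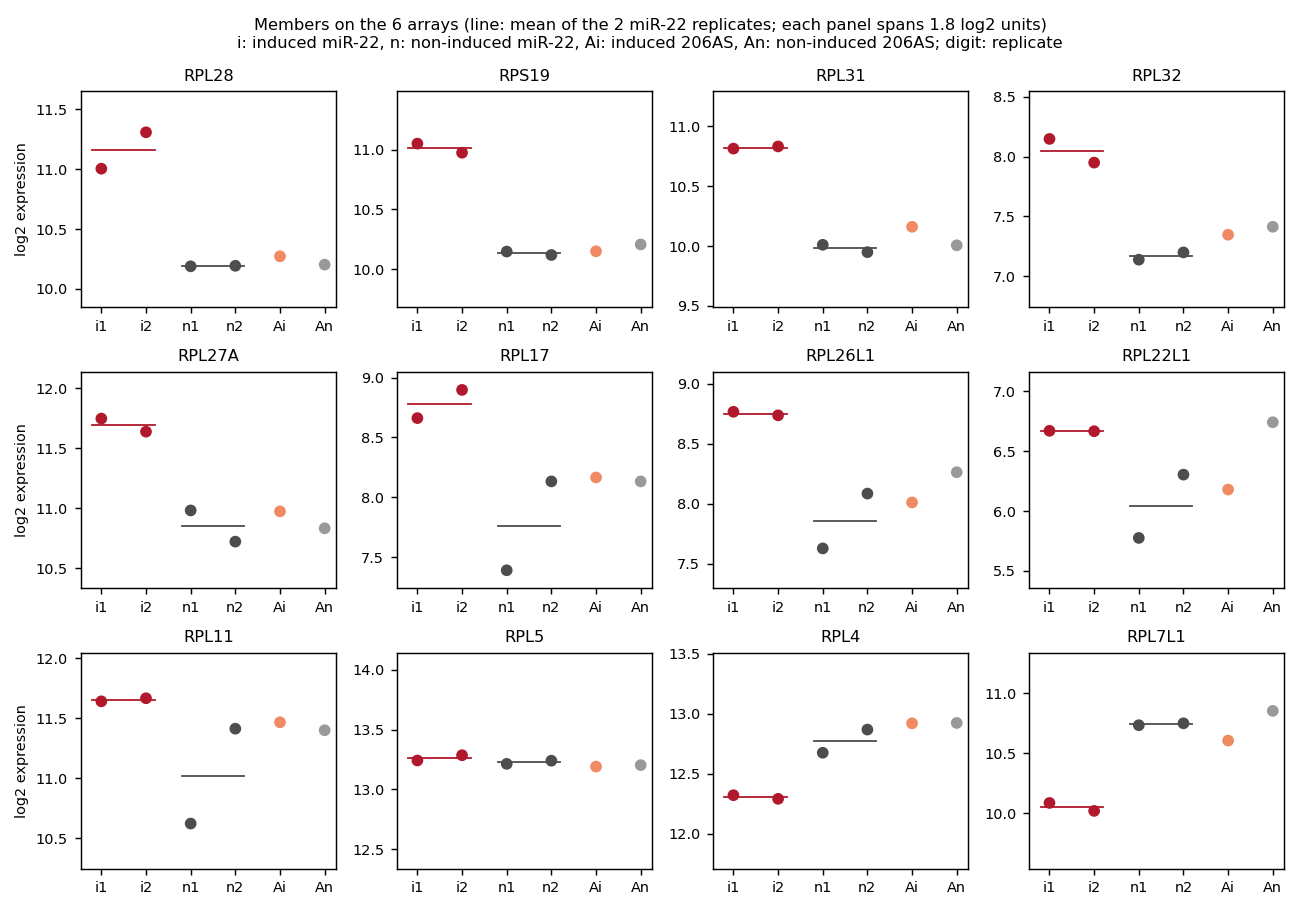
Log2 expression of 12 members on each of the 6 arrays, with the same span of 1.8 log2 units in every panel. The lines are the means of the 2 miR-22 replicates. In RPL28, RPS19, RPL31 and RPL32 the induced miR-22 points stand above all others, in RPL4 and RPL7L1 below all others, and in RPL17 and RPL11 non-induced replicate 1 lies far below its fellow replicate.

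A pair of members ran the other way. RPL7L1 is a paralog of RPL7 whose yeast relative Rlp7 works in assembling the large subunit. It had 10.08 and 10.02 on the induced miR-22 arrays, against 10.73 and 10.75 on the non-induced ones, 10.60 in induced NpBI-206AS cells and 10.85 in non-induced NpBI-206AS cells. The log2 change was -0.69 (SE 0.15, adjusted p = 0.066 in limma), and a second row of the gene gave -0.56. RPL4, which reaches into the exit tunnel with a long loop, had 12.32 and 12.29 on the induced miR-22 arrays, against 12.67 and 12.87 on the non-induced ones, 12.92 in induced NpBI-206AS cells and 12.92 in non-induced NpBI-206AS cells. Its change was -0.47 (SE 0.16, adjusted p = 0.16). In both genes the induced miR-22 arrays lay below all 4 others, and they were the only members with that order. RPL7L1 had no C and T run at its start, whereas RPL4 had one.

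Set against all 4 remaining arrays as a single group, induced miR-22 cells had more members past the test. In that limma fit 19 members rose, 14 of the large and 5 of the small subunit, where 7.78% of all genes rose, and 2 fell (RPL7L1 and RPL4), where 6.31% of all genes fell. The members that rose were RPL13, RPL19, RPL22, RPL23A, RPL24, RPL26L1, RPL27A, RPL28, RPL30, RPL31, RPL32, RPL35A, RPL36, RPLP1, RPS9, RPS14, RPS15A, RPS16 and RPS19. The largest were RPL28 (log2 difference 0.94, SE 0.12, adjusted p = 0.0040), RPS19 (0.85, SE 0.10, adjusted p = 0.0031) and RPL27A (0.82, SE 0.12, adjusted p = 0.0067). RPL7L1 differed by -0.68 (SE 0.12, adjusted p = 0.0097) and RPL4 by -0.54 (SE 0.12, adjusted p = 0.024). The median over members was 0.34, against 0.03 over all genes. Both induced arrays lay above all 4 others for 46 members, 30 of the large and 16 of the small subunit, an order found in 22.1% of all genes, and below all 4 for 2 members, beside 17.2% of all genes.

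This count depended on which arrays were in. Without induced replicate 1 it was 2 members higher and 0 lower, beside 1.37% and 1.13% of all genes. Without induced replicate 2 it was 6 higher and 0 lower, beside 1.97% and 1.91%. Without non-induced replicate 1 it was 25 higher and 2 lower, beside 11.7% and 10.3%, and without non-induced replicate 2 it was 6 higher and 1 lower, beside 4.27% and 3.57%. The calls over all genes thus moved in the same direction as those of the members. The median over members moved between 0.29 and 0.36. The fit treats both lines' control arrays as one kind of sample, and since all comparisons use the same induced miR-22 arrays, they are no independent support for one another.

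**Figure D3:**
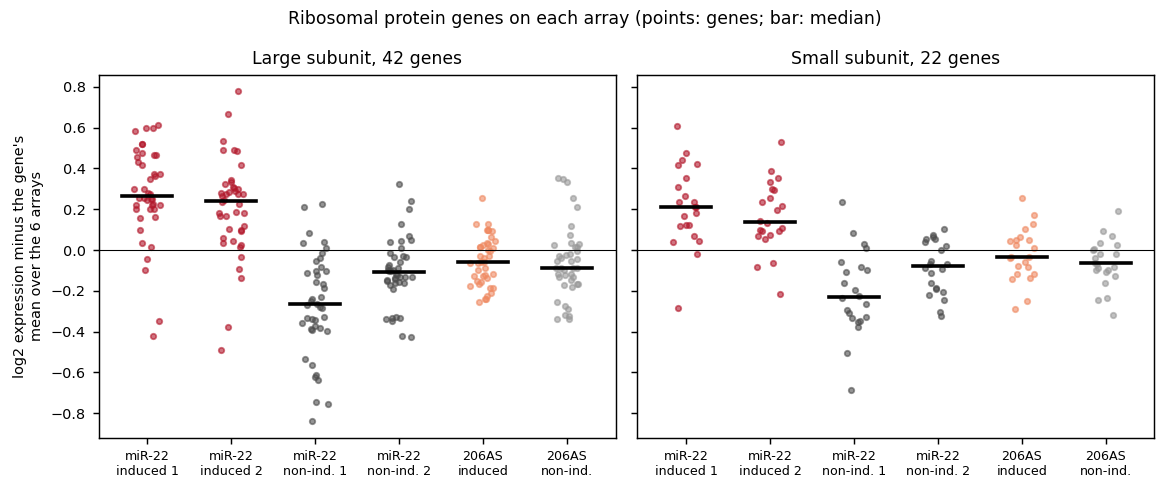
Log2 expression of each ribosomal protein gene minus its own mean over the 6 arrays, for the large subunit (left) and the small subunit (right). Points are genes and bars are medians. Both induced miR-22 arrays lie mostly above 0, non-induced miR-22 replicate 1 lies lowest, and the other 3 arrays lie just under 0.

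Doxycycline was also given to the NpBI-206AS line, in which an effect of the drug and one of the construct cannot be told apart. With 1 array per condition, the differences in that line carry no test. The median member differed by 0.02 between its induced and its non-induced array, with 38 members above 0, beside 50.7% of all genes, and 26 below. None was 1.5-fold apart in either direction, where 0.576% of all genes were that far up and 0.7% that far down. The largest upward differences were RPL3L (0.34), RPS29 (0.29) and RPL10L (0.22), and the largest downward ones were RPL22L1 (-0.56), RPL23 (-0.31) and RPL26L1 (-0.25). Set against induced NpBI-206AS cells, which had the drug too, the mean of induced miR-22 cells was higher for 55 of 64 members, beside 54.9% of all genes, with a median difference of 0.27, against 0.036 over all genes. It was at least 1.5-fold higher for 10 members, beside 6.96% of all genes, and at least 1.5-fold lower for 1, beside 6.85%.

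Whether the miR-22 line responded differently from the NpBI-206AS line was tested as the difference between both responses. Its SE and p rest on the spread of the miR-22 replicates alone, since the single NpBI-206AS arrays have none of their own and were assumed to vary alike. No member passed in limma, as no gene on the arrays did (0% in either direction), with 7 members higher at an unadjusted p under 0.05, beside 4.76% of all genes, and 0 lower, beside 3.26% of all genes. The 7 were RPL22L1, RPL26L1, RPL28, RPL31, RPL32, RPS15A and RPS19. The difference was 0.93 for RPS19 (SE 0.25, adjusted p = 0.42), 0.94 for RPL32 (SE 0.27, adjusted p = 0.44) and 0.89 for RPL28 (SE 0.30, adjusted p = 0.49). The median over members was 0.38, against -0.007 over all genes.

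The control arrays were not level among themselves. Non-induced replicate 1 of the miR-22 line, the only array with prefix R509, was the lowest of the 6 arrays for 38 of 64 members, beside 22.5% of all genes. It stood below replicate 2 in 43 members, beside 47.3% of all genes, with a median difference of -0.14 over members and 0.015 over all genes. It was at least 1.5-fold below in 4 members, a share near the 4.98% of all genes that were. Untreated NpBI-206AS cells differed from replicate 2, which shares their prefix, by a median of 0.04, and from replicate 1 by 0.16, with 7 members at least 1.5-fold above replicate 1, beside 7.29% of all genes. The induced replicates differed from each other by a median of 0.07, with none 1.5-fold apart. RPL11, which with RPL5 and the 5S RNA forms the particle that binds MDM2, shows this on a single gene. It had 11.64 and 11.67 on the induced miR-22 arrays, against 10.62 and 11.41 on the non-induced ones, 11.47 in induced NpBI-206AS cells and 11.40 in non-induced NpBI-206AS cells. Its log2 change of 0.64 (SE 0.28, adjusted p = 0.26 in limma) was 0.24 without non-induced replicate 1 and 1.03 without replicate 2.

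By subunit, the large one shifted slightly more than the small one. The median change with induction of miR-22 was 0.49 for the 42 large-subunit members and 0.33 for the 22 small-subunit members. Both induced arrays lay above both non-induced arrays for 35 of 42 and for 16 of 22, beside 27.9% of all genes. As the mean of the large subunit minus the mean of the small subunit on each array, the value was -0.51 and -0.52 on the induced miR-22 arrays, against -0.63 and -0.58 on the non-induced ones, -0.60 in induced NpBI-206AS cells and -0.57 in non-induced NpBI-206AS cells. The sign of that level reflects different probes and has no meaning, and only its shift between arrays can be read. The shift with induction was 0.09, beside a spread between replicates of 0.02 (pooled SD). It was 0.14 without the paralogs that have L in their symbol, and 0.05 when all rows of a gene were averaged. With medians in place of means the 6 arrays overlapped, at -0.30 and -0.17 on the induced miR-22 arrays, against -0.38 and -0.37 on the non-induced ones, -0.28 in induced NpBI-206AS cells and -0.32 in non-induced NpBI-206AS cells.

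**Figure D4:**
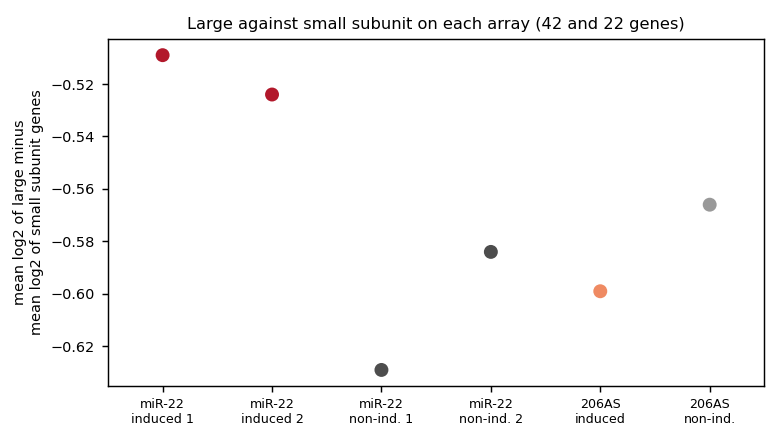
Mean log2 expression of the 42 large-subunit genes minus that of the 22 small-subunit genes on each array. The axis does not start at 0, and the whole range is from -0.63 to -0.51. The induced miR-22 points are highest and non-induced miR-22 replicate 1 is lowest.

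In the large subunit, 2 working parts were read apart from the 5S particle. The exit tunnel and its mouth were read through RPL4, RPL17, RPL19, RPL22, RPL23A, RPL26, RPL31 and RPL35. Of these 8 members, 7 had a value above 0, beside 51.1% of all genes, and the median change of the 8 was 0.58. Most members outside the tunnel had a value above 0 as well, so that count does not set it apart. RPL23A had 12.10 and 12.07 on the induced miR-22 arrays, against 11.48 and 11.59 on the non-induced ones, 11.63 in induced NpBI-206AS cells and 11.63 in non-induced NpBI-206AS cells. The change was 0.54 for RPL19 (adjusted p = 0.16 in limma), 0.61 for RPL26 (0.18) and 0.32 for RPL35 (0.29), so none of the 3 passed. The stalk, which brings translation factors to the ribosome, was read through RPLP1, RPLP2 and its base protein RPL12. Their changes were 0.55, 0.17 and 0.28, with none past the main test.

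RPL5, the partner of RPL11 in the 5S particle and the highest reading among the members, hardly moved. It had 13.24 and 13.29 on the induced miR-22 arrays, against 13.21 and 13.24 on the non-induced ones, 13.19 in induced NpBI-206AS cells and 13.20 in non-induced NpBI-206AS cells, and its change was 0.04 (SE 0.15). RPL23, a protein of the face that meets the small subunit and the landing site of the factor EIF6, had 8.28 and 8.35 on the induced miR-22 arrays, against 8.12 and 8.42 on the non-induced ones, 8.405 in induced NpBI-206AS cells and 8.71 in non-induced NpBI-206AS cells. The groups overlapped, with a change of 0.04. RPL14, a large-subunit protein, changed by -0.01, with induced and non-induced arrays overlapping as well.

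In the small subunit, 8 members of its head were read (RPS3, RPS15, RPS16, RPS19, RPS20, RPS25, RPS28 and RPS29). Of them 7 had a value above 0, beside 51.1% of all genes, and the median of the 8 was 0.39. Most members outside the head had a value above 0 as well, so that count does not set it apart. RPS3, which guards the entry of the mRNA channel, had 12.92 and 12.83 on the induced miR-22 arrays, against 12.41 and 12.79 on the non-induced ones, 12.80 in induced NpBI-206AS cells and 12.68 in non-induced NpBI-206AS cells (change 0.28, adjusted p = 0.47). Without non-induced replicate 1 the change of RPS3 was 0.084, and without replicate 2 it was 0.47. RPS29 was the exception, with 7.39 and 7.75 on the induced miR-22 arrays, against 7.76 and 7.59 on the non-induced ones, 7.94 in induced NpBI-206AS cells and 7.64 in non-induced NpBI-206AS cells, a change of -0.10 (SE 0.19) within the spread of its replicates. RPS6, the protein that S6 kinases phosphorylate, had 11.41 and 11.41 on the induced miR-22 arrays, against 10.85 and 11.07 on the non-induced ones, 11.14 in induced NpBI-206AS cells and 11.18 in non-induced NpBI-206AS cells. Its change was 0.46 (SE 0.16, adjusted p = 0.18), with the induced miR-22 arrays above all others. RPS7, another MDM2-binding member, changed by -0.05 (SE 0.19) and its groups overlapped.

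RPS4X, a small-subunit protein encoded on the X chromosome, had 12.62 and 12.62 on the induced miR-22 arrays, against 12.39 and 12.62 on the non-induced ones, 12.52 in induced NpBI-206AS cells and 12.55 in non-induced NpBI-206AS cells. Its change was 0.12 (SE 0.16), and the upper non-induced replicate was level with the induced arrays. Also near 0 were RPS2 (0.02 on its brightest row, but 0.27 on each of a pair of other rows nearly as bright), RPS21 (0.05), RPS27 (0.09), RPS24 (0.14) and RPS13 (0.17). RPS15A (0.65, adjusted p = 0.084), RPS25 (0.62, adjusted p = 0.15) and RPS14 (0.53, adjusted p = 0.13) were at the upper end among small-subunit members, beside RPS19.

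The 7 paralogs with an L in their symbol were mixed. RPL22L1, the relative of RPL22, had 6.67 and 6.67 on the induced miR-22 arrays, against 5.78 and 6.30 on the non-induced ones, 6.18 in induced NpBI-206AS cells and 6.74 in non-induced NpBI-206AS cells. Its miR-22 response was 0.63 (adjusted p = 0.17) while its NpBI-206AS difference was -0.56, which makes 1.19 between both (SE 0.37, adjusted p = 0.47 in limma). Without non-induced replicate 1 the miR-22 response was 0.36, and without replicate 2 it was 0.89. Untreated NpBI-206AS cells were as high as induced miR-22 cells for this gene. RPL22 itself had 7.88 and 8.06 on the induced miR-22 arrays, against 7.20 and 7.44 on the non-induced ones, 7.45 in induced NpBI-206AS cells and 7.43 in non-induced NpBI-206AS cells, a change of 0.65 (adjusted p = 0.10).

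RPL26L1 had 8.77 and 8.74 on the induced miR-22 arrays, against 7.63 and 8.08 on the non-induced ones, 8.01 in induced NpBI-206AS cells and 8.26 in non-induced NpBI-206AS cells, a change of 0.90 (SE 0.20, adjusted p = 0.073). A second, dimmer RPL26L1 row changed by only 0.03. RPS27L, a relative of RPS27 that p53 can induce, had 6.00 and 6.03 on the induced miR-22 arrays, against 4.96 and 5.48 on the non-induced ones, 5.69 in induced NpBI-206AS cells and 5.71 in non-induced NpBI-206AS cells (change 0.79, adjusted p = 0.11). The induced miR-22 arrays were highest for RPS27L and for the brighter RPL26L1 row. On the dimmer RPL26L1 row they read 5.56 and 5.63, below non-induced replicate 1 at 5.75. The rows of RPL26L1 thus gave different pictures.

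The relatives tied to particular tissues were dim. RPL3L, made in heart and skeletal muscle, had 5.96 and 5.93 on the induced miR-22 arrays, against 5.69 and 5.61 on the non-induced ones, 5.81 in induced NpBI-206AS cells and 5.47 in non-induced NpBI-206AS cells (change 0.30, adjusted p = 0.32). RPL10L, known from testis, lay between 4.94 and 5.29 on all arrays, with a change of 0.29 (adjusted p = 0.34). RPL39L, also known from testis, lay between 2.80 and 3.26, below the lower quartile of every array, and changed by -0.003 (SE 0.19). At such levels a difference would be hard to see.

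Members with several rows allow a look at whether the chosen row decides the result. Over 99 rows of the 64 members, RPL5 was the only gene whose rows differed in sign (-0.01 to 0.05). The size varied more. In RPL41, the shortest ribosomal protein, a pair of bright rows with identical values changed by 0.35, but a dim row had 8.16 and 7.78 on the induced miR-22 arrays, against 6.11 and 6.45 on the non-induced ones, 6.51 in induced NpBI-206AS cells and 6.63 in non-induced NpBI-206AS cells. That row changed by 1.69 (SE 0.21, adjusted p = 0.025 in limma). RPS15 changed by 0.30 on its brightest row and by 1.19 on a dim one (adjusted p = 0.056), and RPL27A by 0.84, 0.85 and 0.14 on 3 rows. Ribosomal protein genes have many processed pseudogenes in the human genome, and since probe positions were not used here, a row may also read such copies.

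The starts were set beside the changes as a description. The 44 members with the C and T run had a median change of 0.49, between -0.47 and 0.96. Of them, 34 had both induced arrays above all others, an order that 22.1% of all genes had. The 9 without it had a median of 0.29, between -0.69 (RPL7L1) and 1.02 (RPL17), and 5 had that order. Both ends of the range thus came from members without the run, and the ranges overlapped.

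In the lists of genes around the ribosome, the median change lay between -0.08 and 0.20, against 0.01 over all genes. Their calls are to be read beside the 1.73% of all genes that rose and the 1.53% that fell, and their unadjusted counts beside 12.1% and 9.12%. Among 18 measured non-ribosomal TOP genes of 22 listed, 1 rose and none fell in limma (unadjusted p under 0.05: 4 with higher and 2 with lower values), with a median change of 0.20. The one that rose was EEF1B2, a subunit of the factor that recharges elongation factor EEF1A, with 8.34 and 8.15 on the induced miR-22 arrays, against 7.38 and 7.24 on the non-induced ones, 7.14 in induced NpBI-206AS cells and 7.11 in non-induced NpBI-206AS cells (0.93, adjusted p = 0.045). FAU, which encodes a ubiquitin-like protein fused to small-subunit protein S30, changed by 0.71 (SE 0.16, adjusted p = 0.074), and RPL36AL, outside the symbol rule, by 0.61 (adjusted p = 0.16). On the same list, the poly(A)-binding protein gene PABPC1 (-0.46, adjusted p = 0.17) and the splicing factor gene HNRNPA1 (-0.92, adjusted p = 0.056) had negative values.

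Ribosome assembly and RNA polymerase I genes were split: of 38 measured of 40 listed, 2 rose and 2 fell in limma, and the median change was 0.00. At an unadjusted p under 0.05 in limma, 7 had higher and 10 had lower values. EIF6, which keeps the subunits apart until the large one is mature, had 11.064 and 10.997 on the induced miR-22 arrays, against 9.96 and 10.16 on the non-induced ones, 10.08 in induced NpBI-206AS cells and 10.25 in non-induced NpBI-206AS cells (0.97, SE 0.16, adjusted p = 0.040). NOP10, a small protein of the particles that place pseudouridine in RNA, rose by 1.15 (SE 0.21, adjusted p = 0.049). NOLC1, a nucleolar phosphoprotein, changed by -1.48 (SE 0.16, adjusted p = 0.021) and TSR1, an assembly factor of the small subunit, changed by -0.94 (SE 0.15, adjusted p = 0.039). In NpBI-206AS cells the median of this list was -0.22 between the single arrays.

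Of 38 measured translation factors of 42 listed, 2 rose and 1 fell, with a median of 0.09. At an unadjusted p under 0.05 in limma, 5 had higher and 4 had lower values. Those that rose were EEF1B2, which the TOP list also holds, and EEF1A2, the form of the elongation factor that adult muscle and nerve use (0.93, SE 0.16, adjusted p = 0.044). EIF5B, which joins the subunits at the start of translation, had 9.04 and 9.29 on the induced miR-22 arrays, against 10.54 and 10.52 on the non-induced ones, 10.39 in induced NpBI-206AS cells and 10.43 in non-induced NpBI-206AS cells, a fall with a log2 change of -1.36 (SE 0.16, adjusted p = 0.025). None of the 20 genes of the mTORC1, LARP1 and S6 kinase list passed in limma in either direction (unadjusted p under 0.05: 2 with higher and 3 with lower values), and their median was -0.08. SESN2, a stress-induced inhibitor of mTORC1, had the highest value (0.86, adjusted p = 0.099), and EEF2K, the kinase that slows elongation, the lowest (-0.67, adjusted p = 0.091).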

How the data were processed

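The table holds log2 expression values that the authors deposited, made with RMA in Partek, for which the submitters' processing notes name no version. RMA corrects background, equalises the distributions of the arrays and summarises probes, so a shift common to all genes is removed. Genome build and chip library file: not given in the sources used here. Raw scanner files and detection calls were not used here. Of 33297 rows, 19460 carried a single gene symbol in the platform annotation, 1754 several and 12083 none. Symbols were updated by gene ID through RefSeq (GRCh38.p14), where 19429 of the single-symbol rows had their ID.

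Groups came from the sample titles. Models were fitted with limma 3.58.1 in R 4.3.3 (lmFit and eBayes, two-sided) over all rows of the 6 arrays, with p-values adjusted by Benjamini-Hochberg across the 33297 rows and called under 0.05. A mean per group gave the main comparison and the difference between responses (2 residual and 3.62 prior degrees of freedom). A second fit compared induced miR-22 cells with the pooled 4 remaining arrays (4 residual degrees of freedom). Single NpBI-206AS arrays were assumed to vary like the miR-22 replicates. The fits were also run on simulated arrays, with independent noise in each row and shifts larger than any member's change. That run does not show how well changes of the members' size are found. Subunits, structural parts and the 4 related lists were described by counts and medians without a test of the list.

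Members and lists were chosen with earlier results of these data known. Named members were those that passed the main test, the largest and smallest changes in miR-22 cells and in NpBI-206AS cells, the highest and lowest levels, and the paralogs. RPL18, RPL11, RPL22, RPL23A, RPS6, RPL19, RPL26, RPL35, RPL14 and the other members given by value were added as examples of a role after their values were seen. Alternatives were each array centred on its median, cyclic loess, removal of the dimmest 50% of rows, the mean of a gene's rows, an intensity trend, the miR-22 arrays alone, the replicate number as a block, members without L paralogs, and each miR-22 array left out. The labels leave unsaid whether same-numbered cultures are paired, and the block rests on only 2 such pairs.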

Additional observations from a re-analysis of the deposited data

Results flagged for a closer look

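Among the 4 arrays without induced miR-22, 11 of the 64 members had 1 array that stood apart from the other 3 by Dixon's criterion. The criterion was not applied to the other genes, so no share over all genes stands beside this count. Its chance rate of about 1 in 20 holds for like and independent values. Members can shift together on an array, so the count shows no excess particular to them. In 8 of them the array was non-induced miR-22 replicate 1, and it was the lowest: RPL11 at 10.62, RPL14 at 11.45, RPL17 at 7.39, RPL18 at 12.02, RPL22 at 7.2, RPS13 at 11.35, RPS15 at 10.96 and RPS3A at 11.9 on the log2 scale. Induced NpBI-206AS cells were highest for RPL27 at 10.03 and RPL28 at 10.27, and non-induced miR-22 replicate 2 was lowest for RPS20 at 11.47. The 4 arrays belong to 3 conditions.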

How the results depend on the processing

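In the main comparison 4 members were higher and 0 lower; 8 and 1 passed without the dimmest 50% of rows, 2 and 0 with the mean of a gene's rows, and 5 and 1 with an intensity trend. Over all 18417 genes 319 were higher and 281 lower in that comparison (1.73% and 1.53%). Without the dimmest rows it was 829 and 695 of 11060 genes (7.5% and 6.28%), with 61 members in the fit. With averaged rows it was 286 and 257 genes (1.55% and 1.4%), and with the trend 343 and 294 (1.86% and 1.6%). The related lists, with 4 genes higher and 3 lower, had 9 and 9 without the dimmest rows. Leaving out any 1 miR-22 array gave 0 for all these counts, and for the comparison with the 4 other arrays between 2 and 25 members higher and between 0 and 2 lower, against 19 and 2. Same-numbered cultures correlated at 0.20 in their deviations from the group means. The replicate number as a block gave 7 members higher and 0 lower, and 5 list genes lower. Over all genes the block gave 835 higher and 632 lower (4.53% and 3.43%). RPL17, RPL26L1 and RPL27A were the members added. The median difference between the responses of both lines was 0.38, against 0.47 after centring and 0.28 after loess. Over all genes that median was -0.007, against 0.091 after centring and 0.011 after loess. With an array left out, the median over members lay between 0.28 and 0.48. The NpBI-206AS median became -0.004 after centring, and 1 member was 1.5-fold apart after centring or loess. The subunit shift was 0.14 without L paralogs and 0.052 with averaged rows. Members near 0 changed sign. After centring RPL14 was 0.057, RPL39L 0.068 and RPS7 0.020, and after loess RPL5 was -0.016 and RPS2 -0.032. In the comparison with 4 arrays RPS2 was 0.029 after centring and 0.127 with averaged rows. With an array left out, the main change ranged from -0.041 to 0.085 for RPS2, -0.281 to 0.078 for RPS29, -0.22 to 0.19 for RPL14, -0.16 to 0.15 for RPL39L, -0.22 to 0.12 for RPS7, -0.11 to 0.20 for RPL23, -0.044 to 0.383 for RPS13, -0.005 to 0.11 for RPS21 and -0.12 to 0.30 for RPS27. In the comparison with 4 arrays it ranged from -0.058 to 0.255 for RPL39L, -0.069 to 0.135 for RPS13, -0.337 to 0.021 for RPS29 and -0.091 to 0.029 for RPS2. The cause of these changes was not tested, except that fewer arrays or rows enter some fits. No detection calls were used, so how far a dim member such as RPL39L stood above background is not known.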
